A study of Mus musculus with 4 samples.

Results

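The clustered protocadherin genes are the genes on chromosome 18 whose symbols start with Pcdha, Pcdhb or Pcdhg. The rule gave 58 genes of 49943 annotated on assembled chromosomes: 14 alpha, 22 beta and 22 gamma genes, of which 57 are protein-coding and 1, Pcdhgb8, is a transcribed pseudogene. Open chromatin was mapped by ATAC-seq, which uses a transposase to cut DNA where nucleosomes leave it bare, in naive CD4 T cells, the unstimulated helper T cells, from mouse spleen and pLN. The groups were DDX55 KO mice (2 libraries), whose targeted gene encodes an RNA helicase that acts in ribosome assembly, and WT mice (2 libraries). The labels do not state the allele, the cells in which the gene was deleted, the age of the mice or whether the libraries came from separate animals. The series is represented by a single deposited list of 64525 regions (mm10) that joins the 4 libraries and gives only positions. All results below therefore describe both genotypes together, no difference between KO and WT was analysed here, and no spread between libraries can be given.

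Protocadherins are cell surface proteins of the cadherin superfamily that bind like molecules on neighbouring cells, and the clustered ones are best known for giving neurons their individual surface identity. Each alpha and gamma gene is an isoform with its own promoter and its own large first exon, which is spliced to constant exons shared by the whole subcluster, whereas beta genes have no constant exons. In neurons, the insulator protein CTCF and the cohesin ring bring single promoters to distant enhancers, and promoters not in use carry DNA methylation. The isoforms named C (Pcdhac1, Pcdhac2, Pcdhgc3, Pcdhgc4 and Pcdhgc5) resemble one another more than their neighbours and are used in neurons without the random choice seen for the others.

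Depth per library is unknown. A place outside the list fell below a peak threshold that no label states, and it is not shown to be closed. The list was checked against the labelled cell type: all 9 naive CD4 T cell markers, among them Cd3e, Cd4, Lck and Lef1, had a region within 1 kb of a gene end. The same held for 1 of 6 neuronal markers (Tubb3), 0 of 4 B cell markers, 2 of 4 myeloid markers (Csf1r and Itgam), 1 of 2 CD8 T cell markers (Cd8b1) and 0 of 2 natural killer cell markers. Over all protein-coding genes the share was 52.6%. The 95% exact interval for the naive CD4 T cell markers lay above it, from 66.4%, and those of the other short lists contained it. The part of other cell types in the regions of the protocadherin cluster was not tested.

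Accessible regions within 1 kb of starts of member genes were found in the gamma subcluster, and none in the alpha or beta subclusters. The cluster, from the start of Pcdha1 to the end of the gamma genes (36930285 to 37841873 on chromosome 18, 912 kb), held 16 regions, and 22 regions lay in the cluster with 50 kb on either side. Of the 16, the alpha genes held 2, the beta genes 3 and the gamma genes 9, and the stretches between the subclusters held 1 each. Of these 16 regions, 8 lay within 1 kb of the start of a member gene, all of them in the gamma subcluster.

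**Figure D1:**
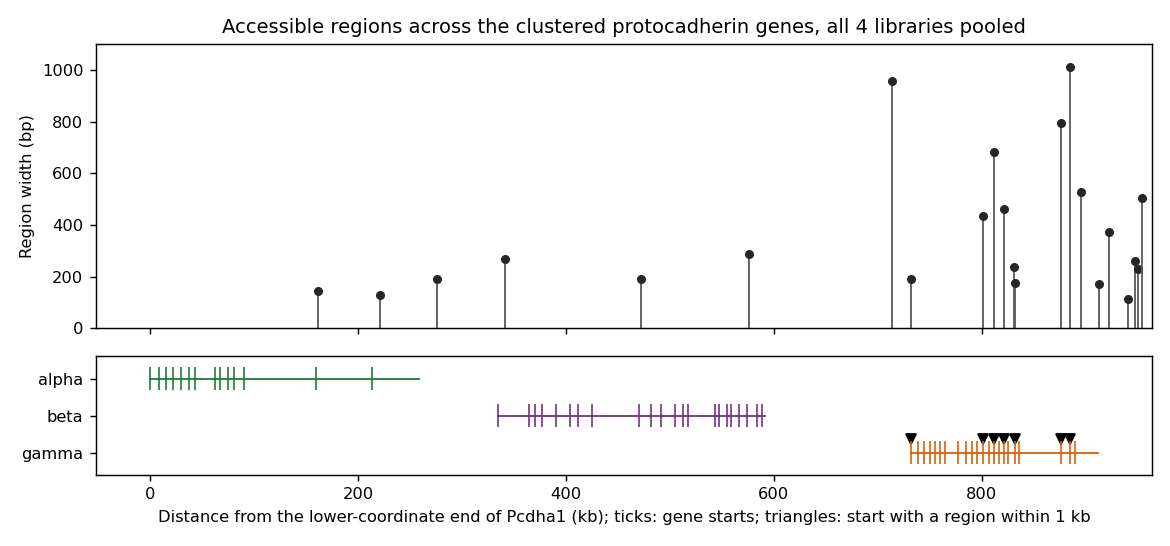
Width of each of the 22 regions (upper panel, bp) against distance from the start of Pcdha1 (kb), with the gene starts of the 3 subclusters as ticks (lower panel) and triangles at the 7 starts that had a region within 1 kb. The widest regions stand in and just before the gamma genes, whereas the regions among alpha and beta genes are between 129 and 289 bp wide.

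The gene table carries no strand. The alpha genes share their higher-coordinate end, as do the gamma genes, and the mouse cluster is known to be transcribed towards these shared ends. The lower-coordinate end was therefore taken as the start of each member. By this measure 7 of the 58 members (12.1%, 95% exact binomial interval 4.99 to 23.3%) had a region within 1 kb of the start, against 50.4% of the 17492 protein-coding genes whose strand is given, none of them on chromosome 18. The counts were 0 of 14 alpha, 0 of 22 beta and 7 of 22 gamma starts (31.8%, 13.9 to 54.9%). Intervals cover counting error over genes only, and neighbouring genes are not independent.

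The 7 gamma starts with a region were those of Pcdhga1, Pcdhgb5, Pcdhgb6, Pcdhgb7, Pcdhgb8, Pcdhgc3 and Pcdhgc4. Except at Pcdhga1, the region lay over the annotated start itself, which was also the case for 7121 of the 8820 protein-coding genes with strand and a region at the start.

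The Pcdhgc4 start (37815079) had the widest region of the cluster, 1011 bp from 37814719 to 37815729. Pcdhgc4 is the isoform that mouse interneurons need for survival. The Pcdhgc3 start (37806410) had a region of 794 bp, from 37806066 to 37806859; the Pcdhgc3 protein is known to bind Axin1, a scaffold of the Wnt pathway. Pcdhgc5, the last isoform of the subcluster, had no region at its start (37819546), and the nearest one, that of Pcdhgc4, ended 3.82 kb before it. A separate region of 528 bp (37825004 to 37825531) began 5.46 kb past the Pcdhgc5 start, inside its gene model and before the long noncoding RNA gene Gm29994, which had no region of its own.

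The B-type gamma genes with a region followed one another and alternated with A-type genes without one. Along the chromosome the order was Pcdhgb5, Pcdhga9, Pcdhgb6, Pcdhga10, Pcdhgb7, Pcdhga11, Pcdhgb8 and Pcdhga12. In this run 4 of 4 B-type starts and 0 of 4 A-type starts had a region within 1 kb. The A-type starts lay 3.72 to 4.91 kb from the nearest region, which in each case was that of a neighbouring B-type gene. This run was picked out after the values were seen, and no test was made on it.

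The region at Pcdhgb6 was the widest of the run, with 683 bp from 37741848 to 37742530. That at Pcdhgb7 was 461 bp wide (37751540 to 37752000) and that at Pcdhgb5 was 434 bp wide (37730884 to 37731317). The pseudogene Pcdhgb8 had a pair of narrow regions, 239 bp (37761427 to 37761665) and 177 bp (37761687 to 37761863), parted by 21 bp. The pair is the only place in the cluster where neighbouring regions lay under 500 bp apart.

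**Figure D2:**
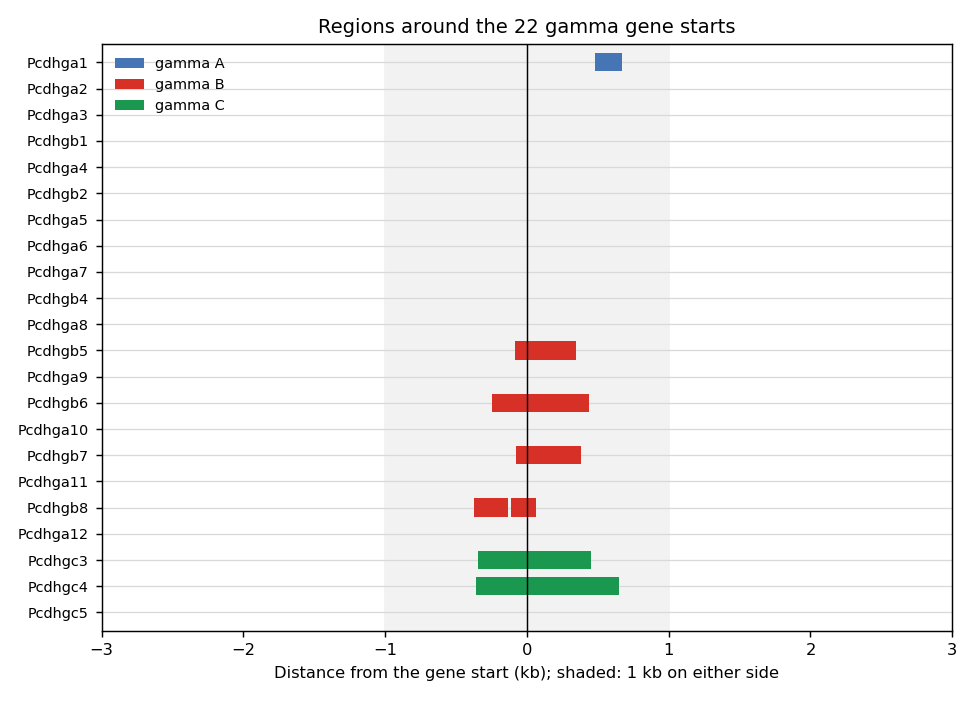
Regions (bars, drawn to scale) around the start of each of the 22 gamma genes, from 3 kb before to 3 kb after it, in chromosomal order from top to bottom and coloured by isoform type. Bars cross the start line at Pcdhgb5 to Pcdhgb8, Pcdhgc3 and Pcdhgc4, and the rows of the A-type genes between them are empty; the region at Pcdhga1 lies 482 bp past the start.

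Before Pcdhgb5 the gamma subcluster held 1 region of the list. Of the 8 A-type and 3 B-type starts there, 1 (Pcdhga1) had a region within 1 kb, 190 bp wide from 37662257 to 37662446. The following 68.4 kb up to Pcdhgb5 held no region and contained 10 gamma starts: Pcdhga2 to Pcdhga8, Pcdhgb1, Pcdhgb2 and Pcdhgb4. Of the gaps between regions on the autosomes, 15.8% were at least as long. From 1 kb before Pcdhgb5 to the shared end, 8 regions lay in 112 kb (7.15 per 100 kb), against 1 region in the 68.2 kb before it (1.47 per 100 kb). The exact Poisson intervals of these densities, 3.09 to 14.1 and 0.0371 to 8.17 per 100 kb, overlapped. Starts of successive gamma genes were a median of 5.33 kb apart, with a range of 3.78 to 40.8 kb.

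Regions at gamma starts were narrower than is usual for gene starts. The region closest to each of the 7 starts had a median width of 461 bp, against a median of 820 bp over the 8820 genes with strand (quartiles 582 and 1041 bp). Pcdhgc4, Pcdhgc3 and Pcdhgb6 lay between these quartiles and the other 4 below the lower one. The middle of the region lay a median of 129 bp past the start, with a range from -26 bp at Pcdhgb8 to 576 bp at Pcdhga1, against a median of 63 bp past the start over the 8820 genes (quartiles -88 and 226 bp).

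The starts of the 12 alpha genes that are not C-type lay 62.4 to 106 kb from the nearest accessible region, against 1.26 kb at Pcdhac1 and 7.55 kb at Pcdhac2. Over all 14, the distance from an alpha start to the nearest region had a median of 82.7 kb and reached 106 kb at Pcdha7. A stretch of 224 kb with no region, from 36867889 to 37091393, held 13 of the 14 alpha starts, from Pcdha1 to Pcdhac1. Among the 63282 gaps between neighbouring regions on the autosomes, 1.59% were at least as long, and the median gap was 18.3 kb. This gap is the longest that touches the cluster, and a share of gaps is not a share of sequence. From the first to the last alpha start (213 kb) lay 1 region, and 13.4% of autosomal windows of that length held as few.

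The alpha subcluster held 2 regions, both narrow. One of 145 bp (37091394 to 37091538) began 1.26 kb past the start of Pcdhac1, just outside the 1 kb window. The other, of 129 bp (37151226 to 37151354), began 7.55 kb past the start of Pcdhac2. Both belong to the C-type part of the subcluster. Since all alpha gene models run to the shared end, each of the 14 had a region inside its model, 2 regions for 13 genes and 1 for Pcdhac2, although none had one at a gene end. Past the shared alpha end, a region of 190 bp (37206490 to 37206679) lay 17.6 kb beyond Pcdha6, whose model ends last, and 58.3 kb before Pcdhb1. An enhancer of the alpha genes is known downstream of their constant exons, but the files annotate no enhancer and the region was not assigned to it.

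Beta genes had no region within 1 kb of a start. A region lay inside 2 of the 22 beta genes (9.09%), against 65.5% of protein-coding genes of all lengths. Beta genes are short (2.34 to 5.27 kb) and no background of their length was made, so these shares do not show a depletion. Of the 22 beta genes, 20 had no region at either end or inside. The exceptions were Pcdhb9, with a region of 192 bp (37402830 to 37403021) that ended 888 bp before its higher-coordinate end, and Pcdhb20, with one of 289 bp (37506019 to 37506307) that ended 1353 bp before it. In both genes the region began well inside the single exon, 1.98 kb past the start in Pcdhb9 and 1.75 kb in Pcdhb20. A region of 270 bp (37271096 to 37271365) lay between Pcdhb1 and Pcdhb2, 6.1 kb past the start of Pcdhb1. The distance from a beta start to the nearest region ranged from 1.75 to 62.5 kb, with a median of 25.9 kb and the highest value at Pcdhb6. The beta genes are close in sequence to one another, and the treatment of reads that match several places is not stated in the labels. Its part in the number of regions was not tested, either here or among the alpha and gamma genes.

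**Figure D3:**
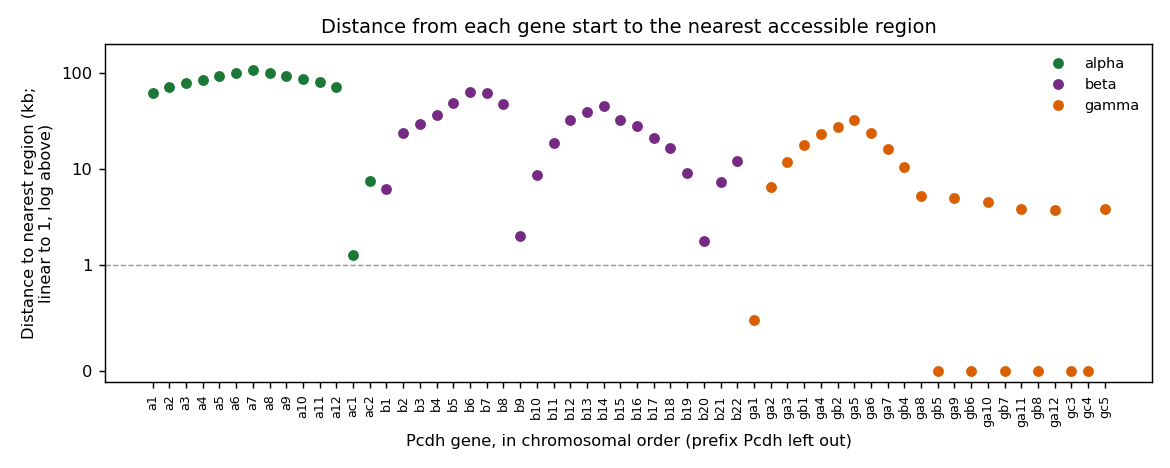
Distance from the start of each of the 58 genes to the nearest region (kb; linear up to 1 kb and logarithmic above), in chromosomal order and coloured by subcluster, with the 1 kb window as a dashed line. The 7 points under the line are gamma genes; 12 alpha genes lie between 62.4 and 106 kb, and the beta genes form arches between the 3 regions in their stretch.

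The count of members with a region at either gene end depended on a single region. Counted at either end, 23 of the 58 members (39.7%) had a region within 1 kb, against 52.6% of the 21887 protein-coding genes. At the higher-coordinate end alone it was 22 of 58 (37.9%), against 8.79% of genes with strand at their 3′ end. Of the 23, 21 were gamma genes that shared 1 narrow region of 172 bp (37842855 to 37843026). It began 982 to 992 bp past their common higher-coordinate end and lay between that end and Diaph1, within 1 kb of both. Without this region, an alternative added after the values were seen, 8 members remained: the 7 with a region at the start and Pcdhb9. The members just inside the window were thus Pcdhb9 and the shared gamma end, and those just outside it were Pcdhac1 (1.26 kb) and Pcdhb20 (1.35 kb).

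Fewer regions per 100 kb lay across the alpha and beta genes than across the gamma genes. The whole cluster had 1.76 regions per 100 kb (95% exact Poisson interval 1.0 to 2.85). Successive windows of the same length along the autosomes had a median of 2.3 per 100 kb (quartiles 1.54 and 3.51), and 35.7% of the 2628 windows held as few regions as the cluster or fewer. The alpha subcluster had 0.773 regions per 100 kb (0.0937 to 2.79), the beta subcluster 1.17 (0.241 to 3.42) and the gamma subcluster 5.0 (2.29 to 9.49). Windows of their own lengths had medians of 1.93, 1.95 and 2.22 per 100 kb. The alpha and beta intervals contained these medians, and the gamma interval lay just above its own. In windows of their own lengths, 18.6% of windows had as few as the alpha genes, 30.8% as few as the beta genes and 87.8% as few as the gamma genes. Taking only regions of at least 300 bp, 0 lay among alpha genes, 0 among beta genes and 6 among gamma genes.

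**Figure D4:**
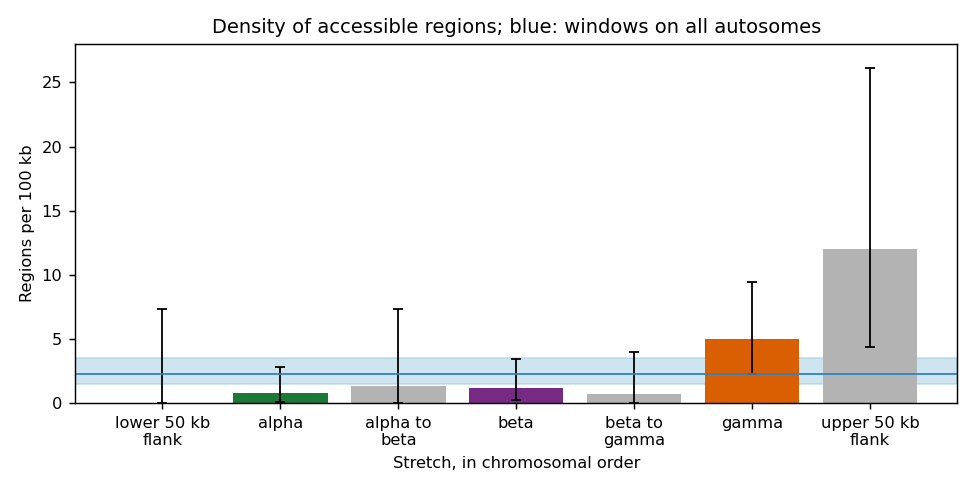
Regions per 100 kb in the 7 stretches of the cluster and its 50 kb flanks, in chromosomal order, with 95% exact Poisson intervals; the blue line and band are the median and quartiles of 2628 autosomal windows of the length of the cluster. The gamma genes (5.0) and the upper flank (12.0) stand above the band, and the lower flank held 0 regions. The band is for windows of 912 kb, whereas the stretches are 50 to 259 kb long, so it does not give the range at their lengths. For windows of the length of the gamma genes the quartiles were 1.11 and 3.89, and no windows of 50 kb were counted.

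The stretch past the gamma genes held regions, whereas that before the alpha genes held none. Diaph1, which encodes a formin that builds actin filaments, lies past the gamma genes and had 8 regions inside its 92.0 kb model. It had a region within 1 kb of both ends. The one at its lower-coordinate end was the same 172 bp region that lay within 1 kb of the shared gamma end. The 50 kb past the gamma end held 6 regions of 113 to 506 bp (12.0 per 100 kb, 95% exact Poisson interval 4.4 to 26.1). The 50 kb before Pcdha1 held 0 regions (interval 0 to 7.38 per 100 kb) and only the pseudogene Gm6756. These 2 intervals overlapped. The last region before the cluster lay 62.4 kb before Pcdha1. Between the beta and gamma genes, Taf7, which encodes a subunit of the general transcription factor TFIID, had a region of 957 bp (37643736 to 37644692) over its higher-coordinate end. This was the second widest region of the cluster, and the neighbouring gene Slc25a2, for a mitochondrial carrier, had none. The pseudogenes among the members (Gm36858, Gm18150, Gm19035, Gm18529, Gm20162, Gm8242 and Gm24401) and the microRNA gene Mir6979 within Diaph1 had no region inside or at an end. The table also lists 3 genes that join an alpha start to the gamma end, Gm37013, Gm38666 and Gm38667, none with a region at the start.

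Protocadherins outside the cluster were used as the closest relatives. Of these 12 genes, 4 had a region within 1 kb of either end (33.3%, 95% exact interval 9.92 to 65.1%). Over all protein-coding genes the share was 52.6%, which this interval contained. The 4 were Pcdh1, at both ends, and Pcdh7, Pcdh17 and Pcdh19. The other 8 had none there: Pcdh8, Pcdh9, Pcdh10, Pcdh11x, Pcdh12, Pcdh15, Pcdh18 and Pcdh20. Among them Pcdh15, a protein of the tip links of inner ear hair cells, had 25 regions inside its 1550 kb model and Pcdh9 had 16 inside 879 kb, whereas Pcdh8, Pcdh10, Pcdh11x, Pcdh18 and Pcdh20 had 0. At the start, 7 of the 58 clustered members had a region, against 3 of the 9 non-clustered genes whose strand is given. The interval for these 9 genes, 7.49 to 70.1%, contained the 50.4% of all protein-coding genes with strand.

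The promoters of Pcdh7, Pcdh17, Pcdh19 and Pcdh10 are printed to show where a region met a protocadherin start and where none did; no promoter sequence of the clustered members was used. Each holds 250 bases before to 50 after the RefSeq start on GRCm38.p6, 5′ to 3′ on the strand of the gene, and capitals mark the bases inside an accessible region.
Pcdh7 (chr5:57717831-57718130, plus strand): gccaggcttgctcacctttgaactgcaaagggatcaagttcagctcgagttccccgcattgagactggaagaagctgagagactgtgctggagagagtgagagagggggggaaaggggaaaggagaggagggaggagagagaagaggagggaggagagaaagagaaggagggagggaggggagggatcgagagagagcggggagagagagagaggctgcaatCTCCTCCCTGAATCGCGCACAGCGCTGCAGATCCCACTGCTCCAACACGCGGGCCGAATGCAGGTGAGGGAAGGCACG
Pcdh17 (chr14:84443313-84443612, plus strand): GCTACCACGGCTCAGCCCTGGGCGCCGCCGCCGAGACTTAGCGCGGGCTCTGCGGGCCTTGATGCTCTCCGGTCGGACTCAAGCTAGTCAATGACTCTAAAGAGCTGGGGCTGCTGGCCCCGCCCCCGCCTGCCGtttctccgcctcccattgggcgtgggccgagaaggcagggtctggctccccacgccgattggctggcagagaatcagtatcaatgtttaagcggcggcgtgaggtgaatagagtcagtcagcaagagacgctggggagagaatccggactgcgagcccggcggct
Pcdh19 (chrX:133688944-133689243, minus strand): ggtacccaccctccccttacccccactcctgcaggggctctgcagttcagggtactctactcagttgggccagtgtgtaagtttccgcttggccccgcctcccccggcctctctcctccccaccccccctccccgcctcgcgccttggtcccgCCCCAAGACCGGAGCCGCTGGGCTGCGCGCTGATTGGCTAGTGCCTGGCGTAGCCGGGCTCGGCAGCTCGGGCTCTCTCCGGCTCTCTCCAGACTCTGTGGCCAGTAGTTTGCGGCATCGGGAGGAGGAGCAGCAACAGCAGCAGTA
Pcdh10 (chr3:45378148-45378447, plus strand): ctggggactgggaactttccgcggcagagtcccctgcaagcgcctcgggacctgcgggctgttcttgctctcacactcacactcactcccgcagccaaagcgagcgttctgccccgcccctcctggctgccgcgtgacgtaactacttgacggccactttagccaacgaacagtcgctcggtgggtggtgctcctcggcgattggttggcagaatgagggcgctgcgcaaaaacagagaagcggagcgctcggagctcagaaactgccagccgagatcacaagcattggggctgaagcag
The region covered 78 of the 300 bases at Pcdh7, including the start, 147 at Pcdh19, including the start, and 135 at Pcdh17, ending before the start. These starts are those of the promoter table, and that of Pcdh7 lies inside its gene model, whose end at 57716145 gave the count above. The region marked at Pcdh7 (57718053 to 57718371) lay outside the 1 kb window at that end. The region counted for Pcdh7 was therefore another one, which is not shown. The promoters met by a region had 26 CpG dinucleotides in 300 bases at Pcdh17, 18 at Pcdh19 and 11 at Pcdh7. The 6 others in the table, with no region, had 24 at Pcdh10, 23 at Pcdh18, 18 at Pcdh9, 14 at Pcdh8, 8 at Pcdh15 and 4 at Pcdh20, so the ranges overlapped. Over all protein-coding genes in the promoter table, the 8304 promoters overlapped by a region had a median of 22 CpG and the 9188 others a median of 4.

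Other gene families that lie in clusters or share the cadherin fold are given for comparison, without a test. A region lay at the start of 3 of 22 Hox genes with strand (13.6%) and 28 of 940 olfactory receptor genes (2.98%). Of 18 other cadherin genes with strand it was 4 (22.2%). The share over all protein-coding genes with strand was 50.4%. At either end the counts were 9 of 39 Hox genes, 48 of 1106 olfactory receptor genes and 9 of 27 other cadherins, the last including Cdh1 for E-cadherin. Over all protein-coding genes the share at either end was 52.6%. The 95% exact interval for the other cadherins, 16.5 to 54.0%, contained it, and those for Hox and olfactory receptor genes lay below it. The Hox clusters had 1.73 (Hoxc) to 7.58 (Hoxa) regions per 100 kb. Cdh18, Cdh12 and Cdh4, neuronal cadherins with long genes, had 22, 17 and 8 regions in the gene and 10 kb on either side, but none at an end, Cdh8 had as many as Cdh4, and Cdh10, Cdh11, Cdh15 and Cdh19 also had none at an end. The Hox genes with the most regions were Hoxb3, Hoxb5 and Hoxb6 with 4 each, and Hoxa2, Hoxa5, Hoxa6, Hoxa7 and Hoxa11 were among those with none at an end. Olfr1033, Olfr1164 and Olfr524 were among the olfactory receptor genes with 3 regions, the most of their family, and Olfr1, Olfr10, Olfr100, Olfr1000, Olfr1002 and Olfr1006 had 0.

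**Figure D5:**
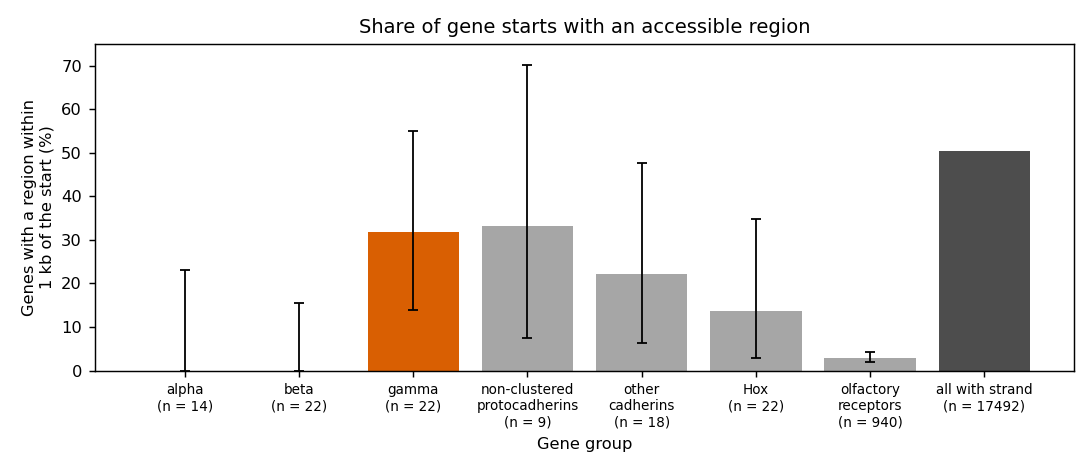
Percent of genes with a region within 1 kb of the start in the 3 subclusters, in the comparison families (genes with strand only) and over all protein-coding genes with strand, with 95% exact binomial intervals on all but the last. Alpha and beta genes are at 0, gamma genes at 31.8%, olfactory receptors at 2.98% and all genes at 50.4%.

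Genes of proteins known to act on the cluster in neurons were counted in the same way. Among 11 genes of loop architecture, 7 had a region within 1 kb of an end (63.6%, 95% exact interval 30.8 to 89.1%), close to the 52.6% of all protein-coding genes. They were Ctcf, the cohesin subunits Smc1a, Smc3, Stag1 and Stag2, the loader Mau2 and Pds5b. Nipbl, Pds5a, Rad21 and Wapl had none at an annotated end; Nipbl had 5 regions inside the gene, Rad21 and Wapl 2 each and Pds5a 0. Stag1, Pds5b and Nipbl had the most in the gene and 10 kb on either side, with 13, 9 and 6.

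The number was 9 of 10 among silencing genes (90.0%, 55.5 to 99.7%), against the same 52.6%. They included Smchd1, which keeps clustered protocadherin genes silent in mouse embryos, Setdb1, a histone methyltransferase that acts on the cluster in mouse neurons, and Dnmt3b, the methyltransferase that acts on these promoters in the embryo. The exception was Dnmt1, the maintenance methyltransferase, with 2 regions inside the gene. Dnmt3a and Atf7ip had the most in the gene and 10 kb on either side, with 14 and 7, and Dnmt1 and Smchd1 followed with 4 each.

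The cytoplasmic partners pass protocadherin signals to the actin skeleton and to Wnt signalling, and 11 of 14 had a region at an end (78.6%, 49.2 to 95.3%). Those with the most in the gene and 10 kb on either side were the kinase Ptk2b with 18, Abi1 of the WAVE complex with 11 and the kinase Ptk2 with 10; Abi2, Nckap1 and Wasf3 had none at an end. Many genes of these 3 lists act in most cell types, and the background over all protein-coding genes is the 52.6% given above.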

How the data were processed

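Per the labels, ATAC-seq libraries of naive CD4 T cells (DDX55 KO, 2; WT, 2) were sequenced as read pairs and placed on build mm10. Tools named in the submitters' processing notes are MACS3 3.0.0b1, SAMtools 1.15.1, Bowtie2 and fastp 0.12.4. Their roles and settings, the treatment of duplicates and of transposase offsets, and the joining of peaks are not stated there. The deposited list has 3 columns (sequence name, start, end), with no count, score or library, so depth is unknown and the other values here are positions. Starts were converted from BED to 1-based. Gene positions came from RefSeq GRCm38.p6, the assembly mm10 names; strand came from the RefSeq promoter table, which had no entry for the 58 members. A region counted when it overlapped a window by at least 1 bp.

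No test was made, because the list pools all libraries. The members and lists were chosen with earlier results of these data known. Named genes: all members; genes between them or within 50 kb; all non-clustered protocadherins; and, per other list, up to 6 genes without a region at an end (by alphabet) and the 3 with the most regions in the gene and 10 kb on either side. One gene that the rule names is not reported here. For marker lists only counts and examples are given, chosen after their values were seen. Start counts used the lower-coordinate end of members as the start. Overlap counting was tested on simulated data. Alternatives were windows of 500 bp, 2 kb and 5 kb, the middle of the region, regions of at least 300 bp, merging under 500 bp, and wider flanks. Python 3.11.15, numpy 2.4.6, pandas 2.3.3, scipy 1.17.1 and matplotlib 3.10.9 were used.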

Additional observations from a re-analysis of the deposited data

How the results depend on the processing

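Counts were taken to hold where they stayed within 1.5 times the value reported. The number of members with a region at either gene end, 23, did not hold: it was 7 with windows of 500 bp, 8 with the middle of the region inside the window, 5 with regions of at least 300 bp and 8 without the region beyond the shared gamma end (added after the data were seen), all of which remove or narrow the part of that single region by construction, and 38 when a region anywhere in the gene body counted. Over all protein-coding genes, the share at either end was 48.8% with 500 bp, 50.7% with the middle of the region and 48.0% with regions of at least 300 bp. In the gene body it was 65.5%, the same as for the members. Among members, all 14 alpha, all 22 gamma and 2 of 22 beta models held a region. The alpha models overlap one another, as do the gamma models, and share regions, so the equal shares do not compare independent genes. The 7 members with a region at the start held with the other windows and region choices, from 5 to 10. With windows of 2 kb the count was 10, and the members added were Pcdhac1, Pcdhb9 and Pcdhb20. Regions at starts were thus confined to gamma genes with windows of 1 kb, but not with windows of 2 kb. The count at the start became 15 with windows of 5 kb (added after the data were seen), which also take in regions of neighbouring starts. Over genes with strand, the share at the start was 46.7 to 54.1% with the other choices and 60.6% with windows of 5 kb. The density of 1.76 regions per 100 kb became 0.768 with regions of at least 300 bp only and 0.878 with regions away from protein-coding gene ends only; it held with wider flanks and with merging. With regions of at least 300 bp only, the alpha and beta genes had 0 regions each, whereas the gamma count held. The counts for non-clustered protocadherins, regulators and partners held under the alternatives run. Within that limit the silencing count of 9 of 10 varied. It was 7 with windows of 500 bp and with the middle of the region, 8 with regions of at least 300 bp and 10 with windows of 2 kb. The median width of the regions in the cluster, 280 bp, was 266 bp with 50 kb on either side and 434 bp when regions under 500 bp apart were merged. No paired analysis was possible because the list carries no value per library. The list has no counts, so what a deeper or stricter call would add or remove among the narrow alpha and beta regions cannot be given.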
